A study of Mus musculus with 62 samples.

Results

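The genes described here are Dino, Cdkn1a and 8 further genes of the p53 response (Mdm2, Ccng1, Trp53, Trp53inp1, Sesn1, Sesn2, Gadd45a and Phlda3), 10 of the 56415 genes in the count table, each found by its gene name. They were measured by poly(A) RNA sequencing in 62 tissue samples from 16 male C57BL/6J mice of 8 to 10 weeks. Each mouse had received 2 g/kg ethanol or an equal volume of saline by intraperitoneal injection, once (acute) or daily for 10 days (chronic), and tissue was taken 4 h after the last injection. The cortex, dorsal and ventral hippocampus (dHPC and vHPC), dorsal striatum (DS) and ventral striatum (VS) gave 20 groups of 3 or 4 mice. All mice were of one inbred strain and sex with no transgene, and each library came from 1 region of 1 mouse, so the p-values below measure the spread between mice.

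p53, encoded by Trp53, is a transcription factor that is held at a low level in unstressed cells by Mdm2, a ubiquitin ligase which is itself a p53 target, and which thereby closes a feedback loop. When p53 is stabilised it raises Cdkn1a, which encodes the cyclin-dependent kinase inhibitor p21, and genes that slow growth, limit oxidative damage or promote cell death. Dino is a noncoding RNA transcribed from the strand opposite Cdkn1a at the same locus, known as a damage-induced transcript that binds and stabilises p53. In brain, Cdkn1a is also known as a gene that responds to glucocorticoids. Protein levels and p53 binding were not measured in these samples.

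The genes were chosen by their place in the p53 response with the measured levels of ethanol against saline mice in view, so they were in part selected on these fold changes. The values of the 10 genes in those comparisons are therefore given as a description with no test. Tests are given for chronic against acute saline mice, for differences between regions in saline mice, and for other genes of the pathway. Levels are CPM, counts scaled to a common library total by the trimmed mean of M values (TMM) within a region, and differences are log2 fold changes with their standard errors (SE) from edgeR. Gene totals ran from 43173748 to 71164766 counts in the cortex and dHPC libraries (kit batch 1, 25 libraries) and from 8149628 to 46564992 in those of the vHPC, DS and VS (kit batch 2, 37 libraries). The library of chronic saline mouse 2 in the DS held 0 counts on chromosomes 7, 8, 9, X, Y and MT and 0 for Gadd45a on chromosome 6, and DS values that moved without it are also given so. In the tissue, fewer cells of a type and less RNA per cell cannot be told apart.

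A promoter window of Cdkn1a, which with Dino had the highest fold changes of the 10 in the acute dHPC, and that of Ccng1, which differed little, are shown. They were the member windows that held a full p53 site. RefSeq promoter windows (GRCm38.p6, 250 bases before to 50 after a start) were matched for 8 of the 10 genes, in 10 windows, with none for Dino and Trp53inp1. A full site was taken as a pair of p53 decamers with no spacer, with the core C and G of each kept and at most 2 mismatches in all, on either strand. It was present in 2 of the 10 windows (20.0%), against 107 of 32851 windows of this length in the table (0.3257%), and a single decamer was present in 6 of 10 (60%) against 2745 (8.356%). The window of the other RefSeq start of Cdkn1a (GRCm38.p6, chr17:29093519-29093818) held 0 decamers and 0 full sites. The 2 full sites begin 51 bases before the upstream RefSeq start in Cdkn1a and 195 bases before the RefSeq start in Ccng1, each with 1 mismatch. Both sequences run 5′ to 3′ on the gene's strand in GRCm39 and end at the RefSeq start, and capitals mark the full site.
Cdkn1a, chr17:29309703-29309952, plus strand: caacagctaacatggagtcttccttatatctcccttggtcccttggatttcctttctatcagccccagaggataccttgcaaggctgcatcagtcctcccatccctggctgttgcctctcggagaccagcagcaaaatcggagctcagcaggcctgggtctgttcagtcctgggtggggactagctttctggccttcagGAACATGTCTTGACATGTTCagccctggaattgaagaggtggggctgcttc
Ccng1, chr11:40646114-40646363, minus strand: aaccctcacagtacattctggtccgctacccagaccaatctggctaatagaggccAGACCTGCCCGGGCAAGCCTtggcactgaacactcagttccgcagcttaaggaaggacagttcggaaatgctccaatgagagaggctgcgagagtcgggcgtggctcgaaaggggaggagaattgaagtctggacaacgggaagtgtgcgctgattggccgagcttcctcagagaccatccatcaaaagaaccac
In the 12.7 kb around Cdkn1a (chr17:29306953-29319701) the site at chr17:29309902-29309921 was the single full match, 2841 bases before the start of isoform Cdkn1a-201. A match describes the letters in the window, and binding to it was not measured.

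Dino (ENSMUSG00000117050) is annotated on GRCm39 as 1 exon of 1046 bases at chr17:29312390-29313435 on the minus strand, inside the span of Cdkn1a (ENSMUSG00000023067) at chr17:29309950-29319696 on the plus strand. First exons of Cdkn1a-201 (chr17:29312743-29312835, 93 bases) and Cdkn1a-205 (chr17:29312755-29313015, 261 bases) lie within it. In all, 273 exonic bases are shared on opposite strands, which is 26.1% of Dino and 7.7% of Cdkn1a. Mdm2 shares 207 bases (4.1%) with Gm56970 and Gadd45a shares 990 bases (56.1%) with E230016M11Rik on the other strand, while the other 6 genes share none. Strand was lost in the library kit used for the cortex and dHPC, yet every library was counted as reverse-stranded, so in those 2 regions reads of Dino and Cdkn1a in the shared bases cannot be told apart. The same holds there for Gadd45a and E230016M11Rik and for Mdm2 and Gm56970, so it limits every cortex and dHPC value of Gadd45a below.

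The count of Dino differed between the kits. In the cortex and dHPC it was 25 to 194 per library, and its total of 2070 was 12.5% of the Cdkn1a total of 16555. This percentage lay between 10.0 and 14.15 in the single libraries, and it was 12.37 in acute ethanol, 12.89 in acute saline, 12.68 in chronic ethanol and 12.11 in chronic saline mice. In the vHPC, DS and VS, where strand was kept, Dino had 0 to 12 counts per library and a total of 46, or 0.5026% of the 9153 Cdkn1a counts. There it was at 0 in 23 of 37 libraries and at 3 counts or fewer in 33. Those libraries were also shallower and from other regions, so kit, region and sequencing run cannot be told apart in this contrast. Of the 46 counts, 28 came from the 9 acute ethanol libraries (12 of them from mouse 5 in the DS, the deepest library of batch 2, and 16 from the other 8), 10 from the 9 acute saline, 6 from the 10 chronic ethanol and 2 from the 9 chronic saline. As a share of the Cdkn1a counts of the same libraries, Dino was at 0.6118, 0.6203, 0.3295 and 0.175% in this order. The share was thus alike in acute ethanol and acute saline mice. These Dino counts were too low for the filter on low counts, and no fold change of Dino was computed outside the cortex and dHPC.

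**Figure D1:**
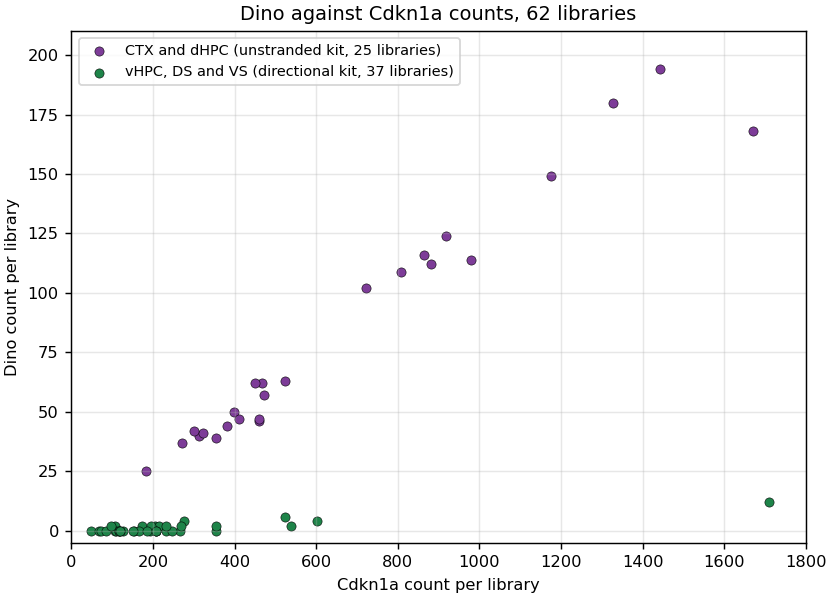
Counts of Dino (y axis) against counts of Cdkn1a (x axis), 1 point per library, with kit batches 1 and 2 marked. The 25 cortex and dHPC points rise together, with Dino at 10.0 to 14.15% of Cdkn1a, and the 37 points of the other regions lie at 0 to 12 Dino counts.

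The mean level of Cdkn1a was higher after a single dose of ethanol in all 5 regions, and its groups did not overlap in 4 of them. In the dHPC the acute saline mice had 6.31, 6.68 and 6.94 CPM and the acute ethanol mice 11.9, 15.02, 25.8 and 35.9 CPM, a log2 difference of 1.74 ± 0.32 (SE). All 4 ethanol mice there were above all saline mice, and they differed among themselves by more than the saline mice did. In the DS the acute saline mice lay at 15.5, 15.8 and 15.8 CPM and the ethanol mice at 21.7, 38.3 and 39.97 CPM (1.10 ± 0.19). The cortex had a smaller difference, with saline mice at 15.5, 16.6 and 16.6 CPM and ethanol mice at 19.7, 23.2 and 23.9 CPM (0.46 ± 0.09). In the VS the saline mice were at 16.2, 16.6 and 18.96 CPM and the ethanol mice at 20.4, 24.1 and 33.5 CPM (0.59 ± 0.19, or 0.36 without ethanol mouse 5). In each of these 3 regions the lowest ethanol mouse was above the highest saline mouse. In the vHPC the saline mice had 7.28, 7.58 and 11.4 CPM and the ethanol mice 7.66, 14.3 and 34.9 CPM, so the groups overlapped. The vHPC difference of 1.12 ± 0.48 rested on mouse 4, and without its library it was 0.33.

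**Figure D2:**
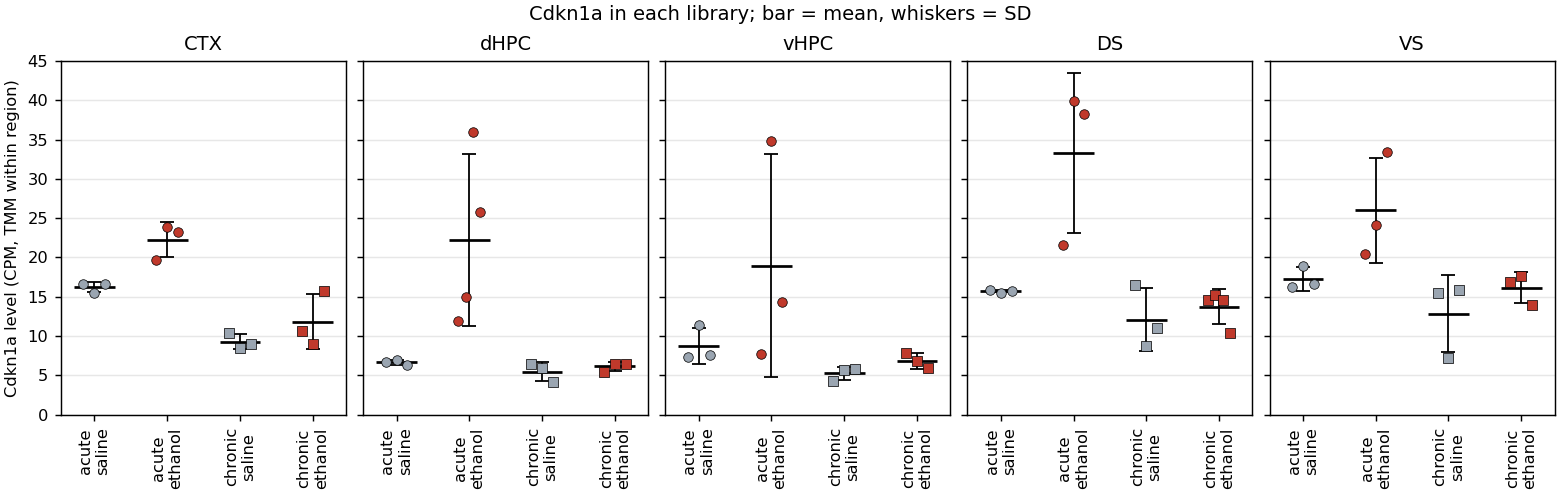
Level of Cdkn1a (CPM, y axis) in each library by region and group, with bars at the group means and whiskers of 1 SD. Acute ethanol mice lie above acute saline mice without overlap in the cortex, dHPC, DS and VS, and chronic saline and ethanol mice overlap in each region except the vHPC.

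Among the acute ethanol mice, mice 4 and 5 had higher Cdkn1a than mice 2 and 3 in every region in which both pairs were represented. Mouse 4 had 23.9, 35.9, 34.9 and 39.97 CPM in the cortex, dHPC, vHPC and DS. Mouse 5 had 23.2, 25.8, 14.3, 38.3 and 33.5 CPM in the same regions and the VS. Mouse 2 had 19.7, 11.9 and 20.4 CPM in the cortex, dHPC and VS, and mouse 3 had 15.02, 7.66, 21.7 and 24.1 CPM in the dHPC, vHPC, DS and VS. The order of these pairs was alike between the regions. The pairs were formed after seeing these values, and the dHPC alone held all 4 mice. No such order was seen in chronic ethanol mice, of which mouse 6 was the highest in the cortex at 15.7 CPM and the lowest in the vHPC, DS and VS at 5.89, 10.4 and 13.99 CPM.

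**Figure D3:**
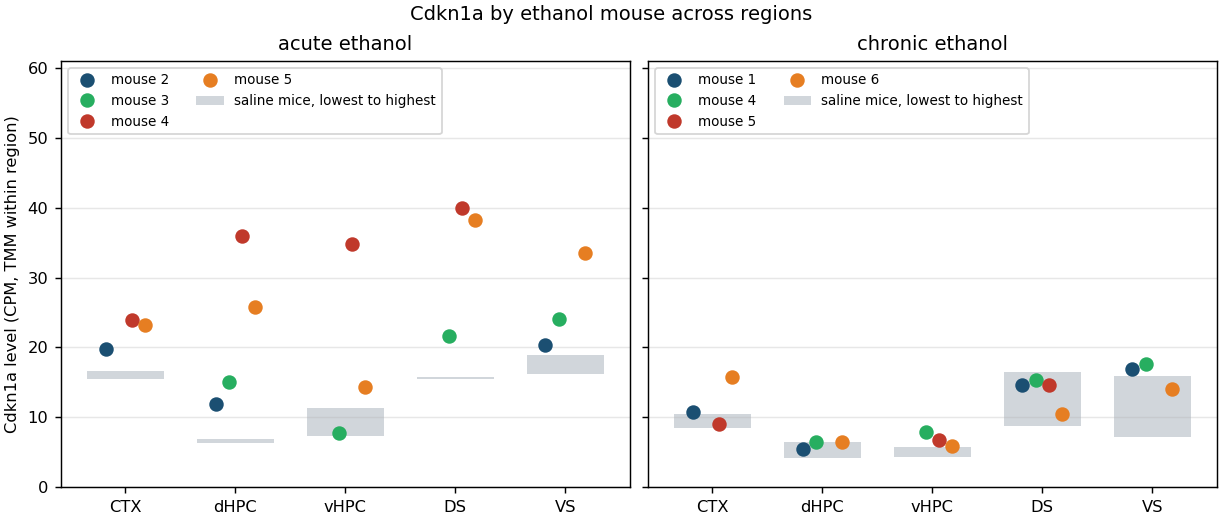
Cdkn1a level (CPM, y axis) by region for each ethanol mouse, acute at left and chronic at right, over a grey bar from the lowest to the highest saline mouse of the same paradigm. Acute mice 4 and 5 lie above mice 2 and 3 in the regions measured, and chronic mice lie near the saline bars.

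Dino had differences of the same direction as Cdkn1a in the 2 regions where it passed the filter. In the dHPC its level was 0.695, 0.839 and 0.886 CPM in acute saline mice and 1.43, 2.12, 3.50 and 3.61 CPM in acute ethanol mice (1.73 ± 0.32). In the cortex it was 2.07, 2.11 and 2.24 CPM in saline mice and 2.30, 3.03 and 3.12 CPM in ethanol mice (0.40 ± 0.17). The groups did not overlap in either region, and the mice with the most Cdkn1a had the most Dino in the dHPC. Reads of the 2 genes in the shared bases cannot be told apart there, so this order is no separate observation on Dino. Its fold changes were close to those of Cdkn1a, and the part of these counts that came from Cdkn1a reads in the shared bases was not tested.

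Of the feedback genes, Mdm2 and Ccng1 differed little after acute ethanol, as did Trp53 outside the VS. Mdm2, the ligase that limits p53, had mean levels of 49.5 CPM in saline and 51.9 CPM in ethanol mice in the dHPC, and its log2 differences over the 5 regions ran from 0.02 in the VS to 0.09 in the DS. Ccng1, which encodes cyclin G1, a p53 target that acts on Mdm2 through a phosphatase, ran from -0.10 in the VS to 0.08 in the dHPC. Trp53 itself was -0.03, -0.08, -0.04, -0.10 and -0.28 in the 5 regions in the order above, and in the dHPC its ethanol mice (14.8 to 15.4 CPM) were all below its saline mice (15.5 to 16.3 CPM). In the VS the Trp53 level was 14.76 to 15.3 CPM in ethanol and 15.24 to 19.69 CPM in saline mice, so the groups overlapped. Apart from Trp53 in the dHPC, the groups of these 3 genes overlapped in every region.

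Of the stress effectors, Sesn1 had a higher mean in all 5 regions after acute ethanol and Trp53inp1 in 4. Sesn1 encodes a sestrin, a leucine-sensing inhibitor of mTORC1. In the DS its acute saline mice had 45.4, 49.1 and 52.3 CPM and its ethanol mice 58.5, 59.9 and 65.2 CPM (0.33 ± 0.08). In the cortex they had 54.4, 55.0 and 57.2 CPM against 60.5, 63.9 and 70.6 CPM (0.23 ± 0.07). In the dHPC they had 54.9, 58.0 and 61.5 CPM against 64.4, 65.5, 69.1 and 71.8 CPM (0.22 ± 0.06). The groups did not overlap in these 3 regions, and they overlapped in the vHPC (0.35 ± 0.13) and VS (0.17 ± 0.13). Trp53inp1, whose protein modifies p53 activity and takes part in autophagy, had 11.3, 12.2 and 13.7 CPM in DS saline mice and 16.9, 18.4 and 19.6 CPM in DS ethanol mice (0.55 ± 0.13), with no overlap. In the cortex it had 7.33, 8.50 and 9.51 CPM in saline and 9.24, 13.2 and 13.7 CPM in ethanol mice (0.51 ± 0.14), where only ethanol mouse 2 fell in the saline range. Its differences were 0.21 ± 0.11 in the dHPC, 0.20 ± 0.31 in the VS and -0.0050 ± 0.18 in the vHPC. With single libraries left out, the dHPC value ran down to 0.11 and that of the VS from -0.07 to 0.50.

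Gadd45a, a growth arrest and DNA repair gene, differed in the other direction in the DS. Its acute saline mice there had 4.11, 5.74 and 6.05 CPM and its ethanol mice 2.51, 2.79 and 3.40 CPM (-0.85 ± 0.26), with no overlap. In the other 4 regions its differences lay between -0.07 in the vHPC and 0.21 in the VS and the groups overlapped, with a dHPC value of 0.17 that ran from -0.04 to 0.33 as single libraries were left out. Phlda3, which encodes a repressor of Akt, was 0.13, -0.03 and -0.07 in the cortex, dHPC and vHPC, -0.40 ± 0.16 in the DS and 0.52 ± 0.28 in the VS, with overlapping groups. Sesn2, a stress-induced sestrin, was -0.41 ± 0.21 in the VS and between 0.03 and 0.19 in the other regions, with overlapping groups.

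At an edgeR false discovery rate (FDR) below 0.1 over all genes tested, Cdkn1a was counted in the cortex, where 1.99% of 25905 genes were, and Cdkn1a, Sesn1 and Trp53inp1 were counted in the DS, where 5.15% were. None of the 10 was counted in the dHPC, vHPC or VS, where 0.042, 0 and 0.0399% of genes were. Groups that did not overlap in the higher direction were found for 3 of 10 genes in the cortex, 3 of 10 in the dHPC, 0 of 9 in the vHPC, 3 of 9 in the DS and 1 of 9 in the VS, against 8.85, 4.01, 9.03, 10.4 and 5.9% of all genes. In the lower direction they were 0 in the cortex, 1 in the dHPC (Trp53), 0 in the vHPC, 1 in the DS (Gadd45a) and 0 in the VS, against 8.81, 4.24, 8.83, 10.9 and 6.43%. DESeq2 counted 3 of the 10 in the cortex (3.69% of all genes), 2 in the dHPC (1.07%), 0 in the vHPC (2.9%), 4 in the DS (6.4%) and 0 in the VS (0.889%). Dino is in the cortex and dHPC counts without overlap, where its reads in the shared bases cannot be told apart from those of Cdkn1a. The choice of the genes used these contrasts, and nothing is read from these counts. The cortex count of 1 was 0 without acute saline mouse 4, acute ethanol mouse 4 or acute ethanol mouse 5 and 3 without acute ethanol mouse 2. The dHPC count of 0 was 2 without acute ethanol mouse 2 and 1 without acute ethanol mouse 4, the DS count of 3 was 1 without acute saline mouse 6, and the VS count of 0 was 1 without acute ethanol mouse 2. When the 4 groups of a region were fitted together, none of the 10 was counted in the acute cortex or DS. In the DS that joint fit also held the incomplete chronic saline library, which is not part of the acute fit.

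The makeup of the DS and VS samples also differed between the acute groups. The summed level of 7 markers of pallial excitatory neurons, cells of the cortex and hippocampus, was 394.8 to 526.9 CPM in DS saline and 17.87 to 107 CPM in DS ethanol mice, and 7 of 7 were called lower. In the VS it was 339.6 to 848.2 against 16.74 to 127 CPM, with 1 of 7 called. These 7 and 1 calls stand beside 3.1% of all genes called lower in the DS and 0.0399% called in the VS. In the DS, 8 genes of striatal projection neurons summed to 3625 to 4653 CPM in saline and 5068 to 5258 CPM in ethanol mice, with 6 of 8 called higher. In the cortex the pallial sum was 1836 to 1974 CPM in saline and 1860 to 1934 CPM in ethanol mice. There 8 myelin genes summed to 1906 to 2154 against 2226 to 2966 CPM, with 5 of 8 called higher, and 8 endothelial genes to 190.8 to 203.3 against 166.2 to 178.5 CPM, with 2 of 8 called lower. The sums of 5 dentate granule neuron genes (24.28 to 26.47 against 20.31 to 22.64 CPM) and of 6 microglia genes (243.6 to 257.9 against 234.7 to 237.9 CPM) were also lower without overlap in the cortex. In the vHPC the dentate sum was 81.71 to 257.6 CPM in saline and 312.1 to 498.2 CPM in ethanol mice, and in the dHPC the sums of all the cell type lists overlapped. The part of these differences in the values of the 10 genes was not tested. A list of 14 genes of the glucocorticoid response had 5 members called higher in the cortex, where 0.818% of all genes were, 6 in the DS, where 2.05% were, and 0 in the dHPC, vHPC and VS, where DESeq2 called 8, 5 and 3 of them. Its median log2 differences were 0.316, 0.449, 0.308, 0.337 and 0.559 over the regions in the same order. Fkbp5, a glucocorticoid-induced co-chaperone, was called higher in the cortex (0.93 ± 0.13, FDR = 0.0103 by edgeR) and DS (0.80 ± 0.09, FDR = 0.000253 by edgeR). Its ethanol mice were also all above its saline mice in the dHPC, vHPC and VS, without a call by edgeR. The paper, which used DESeq2, reports Fkbp5 as upregulated in all 5 regions after acute ethanol. Its ethanol mice lay at 78.28 to 108.3 against 59.68 to 77.03 CPM in the dHPC. In the vHPC the values were 97.88 to 126.4 against 61.82 to 89.72 CPM, and in the VS 65.15 to 93.33 against 50.93 to 53.7 CPM. Of all genes, 4.01, 9.03 and 5.9% were higher without overlap in these regions. Sgk1, a glucocorticoid-induced kinase, was called in the DS (0.66 ± 0.16, FDR = 0.0402 by edgeR). The part of the glucocorticoid response in the level of Cdkn1a was not tested.

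After 10 daily doses the estimated difference of Cdkn1a was smaller than after 1 dose in every region, an order that turned in the cortex without chronic ethanol mouse 5 (chronic minus acute 0.06) and in the vHPC without acute ethanol mouse 4 (0.05). Its chronic saline mice had 4.28, 5.72 and 5.76 CPM and its chronic ethanol mice 5.89, 6.78 and 7.87 CPM in the vHPC (0.38 ± 0.22, or 0.25 without chronic saline mouse 2), which was the single region where the groups of Cdkn1a did not overlap. In the cortex saline mice had 8.47, 9.01 and 10.4 CPM and ethanol mice 8.98, 10.7 and 15.7 CPM (0.36 ± 0.19, or 0.09 without ethanol mouse 6). In the dHPC saline mice had 4.08, 5.96 and 6.39 CPM and ethanol mice 5.44, 6.46 and 6.48 CPM (0.16 ± 0.18, or -0.0068 without saline mouse 6). The cortex and dHPC groups overlapped. In the VS saline mice had 7.15, 15.4 and 15.9 CPM and ethanol mice 13.99, 16.8 and 17.7 CPM (0.33 ± 0.27, or 0.05 without saline mouse 5, the mouse at 7.15 CPM). In the DS saline mice had 8.68, 11.1 and, in the incomplete library, 16.5 CPM, and ethanol mice had 10.4, 14.6, 14.6 and 15.3 CPM (0.18 ± 0.26, 0.48 without the incomplete library and -0.0106 without saline mouse 3). The VS and DS groups overlapped as well.

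Dino was 0.45 ± 0.31 in the chronic cortex, a value that was 0.10 without chronic ethanol mouse 6, and 0.15 ± 0.28 in the chronic dHPC. Sesn1 lay between 0.08 ± 0.12 in the cortex and 0.30 ± 0.12 in the VS, where chronic ethanol mice (53.1, 57.5 and 67.4 CPM) were all above chronic saline mice (41.7, 50.3 and 52.7 CPM). In the DS Sesn1 was 0.13, or 0.24 without the incomplete library. Trp53inp1 was -0.27 ± 0.16 in the cortex (-0.41 to -0.13 with single libraries left out) and -0.12 ± 0.14 in the DS (-0.20 without the incomplete library), the regions in which it had been highest relative to saline after 1 dose, 0.39 ± 0.18 in the vHPC, -0.07 in the dHPC and -0.13 in the VS. Gadd45a had 3.93, 4.26 and 4.67 CPM in VS saline and 1.88, 2.18 and 3.09 CPM in VS ethanol mice (-0.84 ± 0.28), with no overlap. In the DS its difference was 0.02 ± 1.13 with the incomplete library, in which it had 0 counts, and -0.58 without it, and it was 0.38 ± 0.25 in the cortex, -0.34 ± 0.15 in the dHPC and 0.15 ± 0.40 in the vHPC, with overlapping groups. Phlda3 was -0.22 ± 0.08 in the dHPC, where chronic ethanol mice (13.5 to 14.9 CPM) were below chronic saline mice (15.4 to 17.1 CPM), 0.36 ± 0.16 in the cortex, 0.25 in the vHPC, -0.25 in the DS (-0.33 without the incomplete library) and -0.06 in the VS. Sesn2 was -0.03, 0.21, -0.23, -0.30 and 0.09 from the cortex to the VS, and -0.39 in the DS without the incomplete library. Mdm2, Ccng1 and Trp53 lay between -0.16 and 0.13 in the 5 regions, and without the incomplete library they were 0.05, -0.10 and -0.17 in the DS. None of the 10 genes passed an FDR of 0.1 in a chronic comparison, in which edgeR counted 0% of all genes in 4 regions and 0.0555% in the vHPC, nor in DESeq2, which counted 0.608, 0.859, 1.08, 1.02 and 1.79%. Groups did not overlap in the higher direction for 1 of the 10 in the vHPC and 1 in the VS and for none in the other regions, against 8.14, 6.58, 7.33, 5.74 and 8.4% of all genes. In the lower direction this held for 1 in the dHPC and 1 in the VS, against 9.83, 7.32, 7.46, 3.02 and 7.71%. Fkbp5 was higher after chronic ethanol without overlap in the cortex, dHPC, DS and VS, and its vHPC groups overlapped. In the cortex it had 23.45 to 26.2 CPM in saline and 32.18 to 43.99 CPM in ethanol mice. In the VS it had 37.07 to 47.11 against 58.25 to 62.6 CPM. Marker sums differed here as well. In the vHPC, where the Cdkn1a groups did not overlap, the 7 choroid plexus genes summed to 26.4 to 205.1 CPM in saline and 879.3 to 3153 CPM in ethanol mice, the endothelial genes to 160.3 to 183 against 140.5 to 144.7 CPM and the pallial genes to 2255 to 2667 against 1484 to 2115 CPM. In the dHPC the myelin sum was 6586 to 7674 against 5237 to 6011 CPM and the dentate sum 246.1 to 403.6 against 417.2 to 584.1 CPM. In the VS the endothelial sum was 191.6 to 198.3 against 178.1 to 189.1 CPM and the dentate sum 29.87 to 38.83 against 15.94 to 18.43 CPM. The pallial markers summed to 95.99 to 609.6 CPM in DS saline (452 to 609.6 CPM without the incomplete library, where myelin was 9552 to 9834 against 6412 to 9050 CPM) and 20.35 to 161.2 CPM in DS ethanol mice, and to 62.03 to 733.4 against 13.32 to 76.24 CPM in the VS, and their part was not tested.

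**Figure D4:**
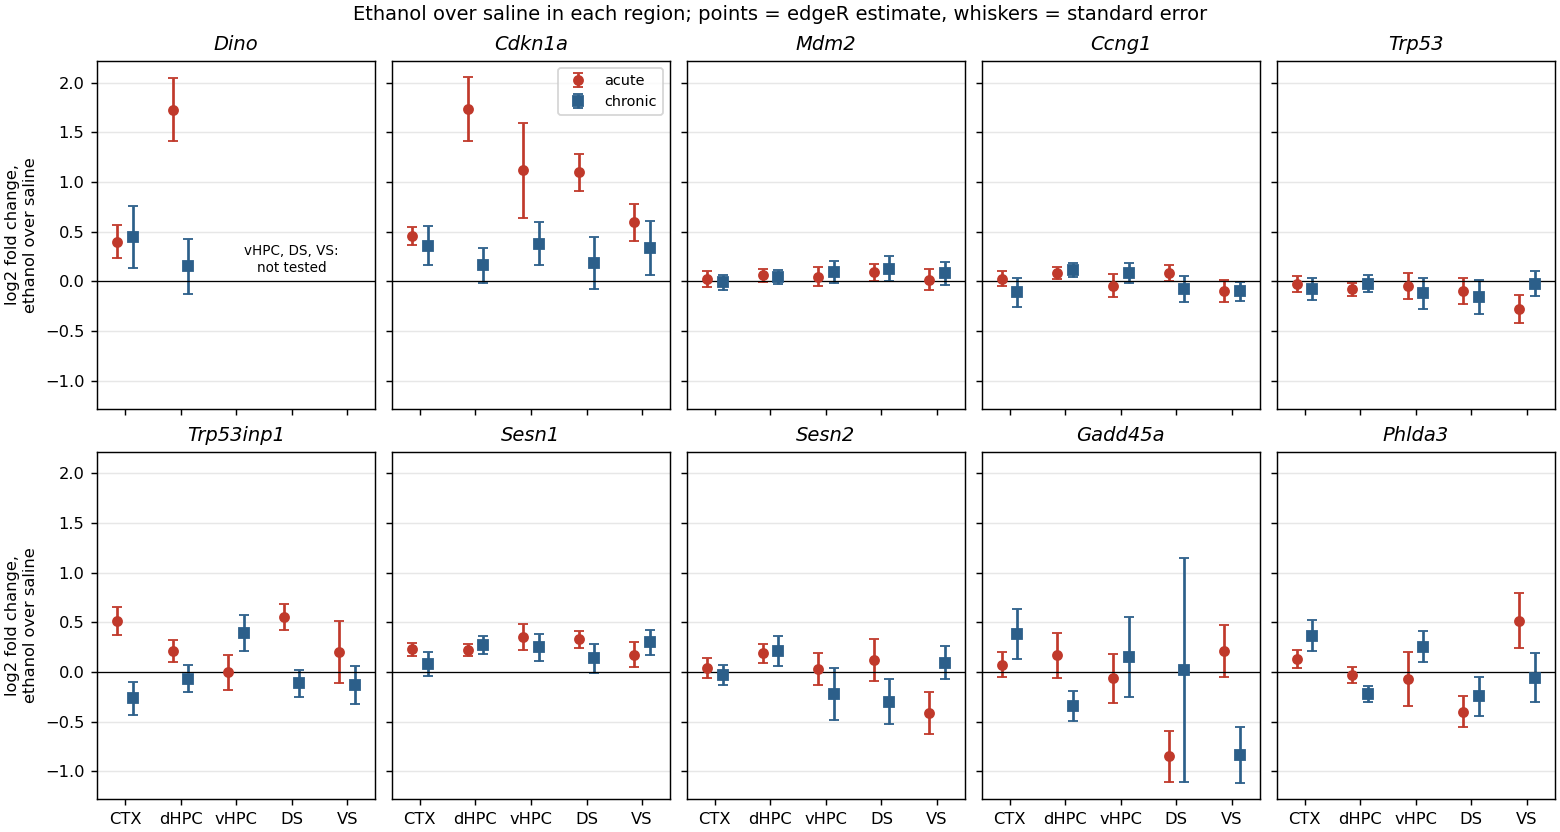
Log2 fold change of ethanol against saline (edgeR) for each of the 10 genes by region, acute and chronic, with error bars of 1 SE. Cdkn1a and Dino are the genes farthest above 0 in the acute dHPC, and Gadd45a lies below 0 in the acute DS and chronic VS. Mdm2, Ccng1 and Trp53 lie near 0, except Trp53 in the acute VS, which lies below it.

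The interaction of paradigm and treatment is the chronic minus the acute ethanol difference. It was -1.59 ± 0.43 for Cdkn1a and -1.58 ± 0.44 for Dino in the dHPC. In the DS it was -0.90 ± 0.37 for Cdkn1a and -0.68 ± 0.17 for Trp53inp1, and -0.61 and -0.76 without the incomplete library. Trp53inp1 also had -0.79 ± 0.24 in the cortex, where Cdkn1a had -0.11 ± 0.22 (0.06 without chronic ethanol mouse 5) and Dino 0.04 ± 0.34. In the VS Cdkn1a had -0.25 ± 0.35, which ran from -0.56 to -0.03 with single libraries left out. Trp53inp1 had -0.29 ± 0.18 in the dHPC, 0.39 ± 0.25 in the vHPC and -0.33 ± 0.40 in the VS. For Gadd45a it was -1.05 ± 0.36 in the VS, 0.30 ± 0.30 in the cortex, -0.52 ± 0.32 in the dHPC, 0.22 ± 0.51 in the vHPC and 0.88 ± 1.19 in the DS, or 0.28 ± 0.44 there without the incomplete library. Phlda3 ran from -0.57 ± 0.42 in the VS to 0.32 ± 0.33 in the vHPC, and Sesn2 from -0.42 ± 0.30 in the DS to 0.51 ± 0.27 in the VS. Sesn1, Mdm2, Ccng1 and Trp53 lay between -0.19 and 0.26 in the 5 regions. In the vHPC the Cdkn1a value of -0.74 ± 0.58 was 0.05 without acute ethanol mouse 4. EdgeR counted 0% of genes at an FDR below 0.1 in all 5 regions, and DESeq2 counted 0.0791, 0.00745, 2.02, 0.0142 and 0.0191%, with none of the 10 among them in either.

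The first of the tests asked whether 10 saline injections differed from 1. The genes were not chosen on this contrast, but they were chosen with earlier results of these data known. It also shares its saline libraries with the ethanol comparisons, so it is no independent evidence. Cdkn1a was lower in chronic than in acute saline mice in all 5 regions by its mean. In the cortex acute saline mice had 15.5 to 16.6 CPM and chronic saline mice 8.47 to 10.4 CPM, with a log2 difference of -0.81 ± 0.10 (FDR = 0.0886 by edgeR), and Cdkn1a was 1 of 2 genes called of 25911 tested (0.00772%). Its FDR was 0.216 without acute saline mouse 4, 0.295 without chronic saline mouse 5 and 0.204 without chronic saline mouse 6 in edgeR, and 1.04e-08 in DESeq2. In the vHPC its difference was -0.74 ± 0.24 (FDR = 0.35 by edgeR) and in the DS -0.66 ± 0.18 (FDR = 0.119 by edgeR, 0.0888 by DESeq2). With the incomplete library the DS value was -0.38 (FDR = 0.983 by edgeR). The VS and dHPC had -0.43 ± 0.27 (FDR = 0.854 by edgeR) and -0.27 ± 0.17 (FDR = 0.714 by edgeR), which were -0.13 without chronic saline mouse 5 and -0.10 without chronic saline mouse 6. The groups did not overlap in the cortex, vHPC, DS and VS, where 6.24, 7.91, 16.9 and 5.82% of all genes were lower without overlap. Of the other members, Dino and Gadd45a in the cortex, Trp53inp1 and Phlda3 in the dHPC (7.08% of all genes) and Sesn1 in the VS were lower without overlap.

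Dino had a similar difference in the cortex (2.07 to 2.24 CPM in acute and 0.847 to 1.38 CPM in chronic saline mice, -0.96 ± 0.21), which did not pass in edgeR (FDR = 0.374) and did in DESeq2 (FDR = 0.0369) and without chronic saline mouse 3 (FDR = 0.0693 by edgeR). In the dHPC it was -0.19 ± 0.25 (FDR = 0.864 by edgeR), or -0.06 without chronic saline mouse 6. In both regions Dino reads in the shared bases cannot be told apart from those of Cdkn1a. Gadd45a was -0.52 ± 0.20 in the cortex (FDR = 0.633 by edgeR), without overlap between 5.90 to 6.17 and 2.85 to 5.60 CPM. No other gene of the 10 passed in any region. Trp53inp1 ran from -0.40 ± 0.19 in the vHPC to 0.28 ± 0.17 in the DS, Sesn2 from -0.35 ± 0.20 in the VS to 0.30 ± 0.25 in the DS, Phlda3 from -0.14 in the dHPC to 0.23 in the VS, and Gadd45a outside the cortex from -0.21 to 0.43. Mdm2, Ccng1, Trp53 and Sesn1 lay between -0.22 and 0.20 in the 5 regions. EdgeR called 0.00382% of all genes in the dHPC, 0% in the vHPC, 3.17% in the DS and 0% in the VS, and DESeq2 called 0.668, 0.55, 1.95, 4.39 and 0.114% from the cortex to the VS, with Cdkn1a and Dino called in the cortex, Cdkn1a in the DS and 0 members elsewhere. At an unadjusted edgeR p under 0.05 there were 3 members in the cortex, 1 in the dHPC (Trp53inp1), 1 in the vHPC, 1 in the DS and 0 in the VS. Members that were higher without overlap were Trp53 in the dHPC, Mdm2 and Trp53inp1 in the DS and Gadd45a in the VS, where 8.01, 16.6 and 5.81% of all genes were so (6.6% in the cortex and 8.9% in the vHPC). In the cortex all 14 genes of the glucocorticoid list had a negative difference (median -0.374, 0 called), with Fkbp5 at -0.51 ± 0.09 (FDR = 0.213 by edgeR), their sum at 799.1 to 985.6 CPM in acute and 685.1 to 700.1 CPM in chronic saline mice, and 5 of them called lower by DESeq2. In the DS that sum was 949.1 to 1175 against 846.1 to 928.9 CPM, and the choroid plexus sum was 22.38 to 303.6 against 1955 to 7282 CPM. In the vHPC the dentate sum was 81.71 to 257.6 against 265.3 to 492.8 CPM, in the dHPC the myelin sum 8501 to 9790 against 6586 to 7674 CPM, and in the VS the myelin sum 5044 to 5405 against 5581 to 7729 CPM and the endothelial sum 159.9 to 169.9 against 191.6 to 198.3 CPM. The part of these lists in the Cdkn1a differences was not tested.

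**Figure D5:**
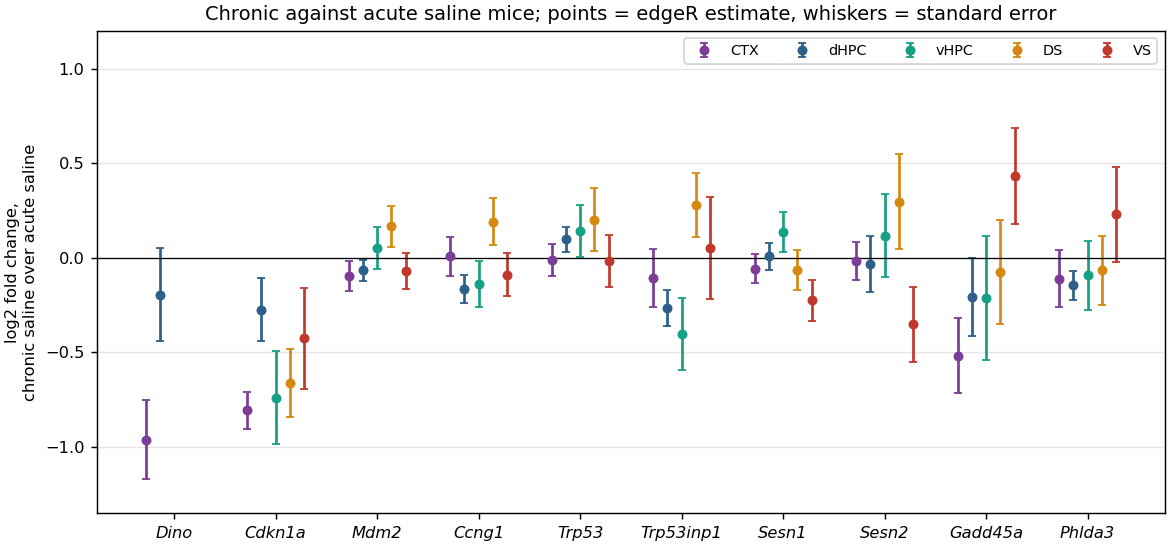
Log2 fold change of chronic over acute saline mice (edgeR, y axis) for each of the 10 genes, with a point per region and whiskers of 1 SE, without the incomplete DS library. Cdkn1a lies below 0 in all 5 regions, from -0.81 in the cortex to -0.27 in the dHPC, and the points of Mdm2, Ccng1 and Trp53 lie on both sides of 0.

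Per kb of exon, which allows levels of different genes to be set side by side, the order of the 10 genes in saline mice was alike at the top in all regions. In the cortex the means per kb were 23.2 CPM for Ccng1, 13.7 for Sesn1, 10.9 for Phlda3, 7.62 for Mdm2, 4.10 for Sesn2, 3.59 for Cdkn1a, 3.32 for Trp53, 2.91 for Gadd45a, 1.55 for Dino and 1.26 for Trp53inp1. Ccng1 was apart from its neighbour in this order, as was Mdm2 from Sesn2, and the ranges of all other neighbours overlapped. Ccng1 was the highest in the dHPC (17.3), vHPC (15.8) and DS (14.6) and the second in the VS (11.8), where its range overlapped that of Sesn1 (13.1). Cdkn1a was ninth of 10 in the dHPC at 1.71 CPM per kb and sixth in the DS and VS at 3.76 and 4.23. Dino had 0.722 in the dHPC and at most 0.0616 in the mean of a region of batch 2.

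Regions were compared in saline mice of both paradigms, within a kit batch, on one scale per pair, and with 5 or 6 libraries a region. The same mice gave both regions for 4 mice in the cortex and dHPC and for 5 mice in each pair of batch 2, and values with the mouse as a block are given where they change a call. Cdkn1a was lower in the dHPC than in the cortex (5.98 ± 1.01 against 13.0 ± 3.99 CPM, SD, n = 6 each by edgeR, -1.08 ± 0.12 SE, FDR = 2.67e-06), without overlap. Dino had a like difference (-1.09 ± 0.18, FDR = 0.000153 by edgeR), with overlapping ranges (0.5522 to 0.8761 against 0.8629 to 2.285 CPM). Its reads in the shared bases cannot be told apart from those of Cdkn1a in these regions. The call of Dino is therefore not separate from that of Cdkn1a. Ccng1 was also lower in the dHPC (-0.48 ± 0.07, FDR = 5.44e-05 by edgeR). Trp53inp1 (0.56 ± 0.10, FDR = 0.000221 by edgeR), Mdm2 (0.27 ± 0.05, FDR = 0.000171 by edgeR) and Trp53 (0.25 ± 0.05, FDR = 0.000758 by edgeR) were higher in the dHPC. These were 6 of 10 genes, where 55.3% of all genes were called. The other 4 lay between -0.14 and 0.06.

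Within batch 2, Cdkn1a had a higher mean in both striatal regions than in the vHPC, with overlapping ranges in each pair. It had 13.1 ± 3.30 CPM (SD, n = 5) in the DS against 6.96 ± 2.46 (n = 6) in the vHPC (0.85 ± 0.15 SE, edgeR FDR = 0.00062), and 14.7 ± 3.98 in the VS against 7.10 ± 2.51 (n = 6 each, 1.07 ± 0.19 SE, edgeR FDR = 0.000639). Sesn2 had the largest difference of the 10, at 6.68 ± 1.25 CPM in the DS against 18.4 ± 4.30 in the vHPC (-1.45 ± 0.17 SE, FDR = 2.04e-05 by edgeR), and it was lower in the VS as well (-1.04 ± 0.16, FDR = 0.00022 by edgeR), without overlap in either pair. Mdm2 was higher in the DS than in the vHPC (0.27 ± 0.08, FDR = 0.0131 by edgeR). Ccng1 was lower in the VS than in the vHPC (-0.47 ± 0.08, FDR = 0.00059 by edgeR). The counts were 3 of 9 genes in each pair, where 41.6% and 39.1% of all genes were called. The other genes lay between -0.13 and 0.30 in the DS and between -0.20 and 0.12 in the VS, and with the mouse as a block Mdm2 passed in the VS as well (0.18 ± 0.07, FDR = 0.0973 by edgeR). Between the VS and DS, Ccng1 (-0.35 ± 0.09, FDR = 0.0368 by edgeR) and Gadd45a (-0.55 ± 0.18, FDR = 0.0958 by edgeR) were lower in the VS, 2 of 9 genes where 9.88% of all genes were called. With the mouse as a block Ccng1 remained called (FDR = 0.0541 by edgeR) and Gadd45a did not (-0.59 ± 0.21, FDR = 0.129 by edgeR). The other 7 genes lay between -0.37 and 0.42, with Cdkn1a at 0.20 ± 0.18. The call of Ccng1 was lost without chronic saline mouse 6 of the DS (FDR = 0.116 by edgeR) and with the incomplete DS library (FDR = 0.158 by edgeR), and the count of 2 was 1 without the DS or VS library of acute saline mouse 4 or 6 or the VS library of chronic saline mouse 3 or 6. Further calls appeared when 1 library was left out, Ccng1 between the DS and vHPC without chronic saline mouse 6 of the DS (FDR = 0.07 by edgeR) and Sesn2 between the VS and DS without chronic saline mouse 3 of the DS (FDR = 0.063 by edgeR). The striatal samples expressed their own markers. Over all groups, 8 genes of striatal projection neurons summed to 2980 to 5718 CPM in the DS and 2134 to 4574 in the VS. In the vHPC they summed to 90.45 to 1008 CPM over all groups and to 90.45 to 270.5 CPM in saline mice. The dHPC had 100.2 to 1786 CPM and the cortex 146.5 to 230.9 CPM. These sums were scaled within each region.

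The isoform counts of Cdkn1a rested on few distinct exons. Because reads on shared exons were counted for each isoform, these values overlap and do not add up. Cdkn1a-201 held 98.98% of the gene's count in batch 1 and 99.31% in batch 2, and Cdkn1a-205 99.5% in both. Cdkn1a-202 held 54.67 and 53.05% and Cdkn1a-203 49.7 and 45.18%, while Cdkn1a-204 held 0.1329 and 0.142%. The acute ethanol over saline ratio of the 4 abundant isoforms ran from 1.371 to 1.419 in the cortex, 3.302 to 3.533 in the dHPC, 2.098 to 2.241 in the vHPC, 2.02 to 2.157 in the DS and 1.503 to 1.644 in the VS. These ranges run over isoforms that share most of their reads, so they do not measure the spread between mice and do not rank the regions. As for the whole gene, saline and ethanol mice overlapped in the vHPC for each of the 4 isoforms and in no other region.

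Likeness between genes was measured as Pearson's r of log2 CPM (prior count 2) after each group was centred on its mean, so that it describes differences between mice of a group. Points share mice, kits and, in the case of Dino, bases. Over 25 cortex and dHPC libraries and 25543 genes, Cdkn1a was the gene most like Dino (r = 0.901, with 0.881 in the cortex and 0.931 in the dHPC), followed by BC039966 (0.831), Gm17971 (0.804), Khk (0.8) and Macroh2a2 (0.791). Of the other members, Sesn1 (0.514) and Trp53inp1 (0.447) had the highest r to Dino and Ccng1 the lowest (-0.414), where 95% of genes lay between -0.506 and 0.495. The Ccng1 value was -0.706 in the cortex and -0.08 in the dHPC. To Dino, Fkbp5 had 0.533, above these members, and Sgk1 0.351. Over the 61 complete libraries and 19360 genes the genes most like Cdkn1a were Rhoj (0.649), Pnpla2 (0.633), Thg1l (0.586), Rtkn2 (0.583) and Cpxm2 (0.576). The members had 0.308 for Sesn1, 0.254 for Phlda3, 0.243 for Gadd45a, 0.223 for Trp53inp1, -0.017 for Sesn2, -0.129 for Ccng1, -0.183 for Trp53 and -0.276 for Mdm2, all within the central 95% of genes (-0.376 to 0.374). Fkbp5 had 0.371 and Sgk1 0.285. In batch 1 alone Phlda3 had -0.019 and in batch 2 0.334.

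A list of 39 other p53 target and regulator genes had few genes called after ethanol. The list was written with earlier results of these data known, so these counts are no independent evidence. In the acute cortex 38 were tested and 1 was called, where 1.99% of all genes were. It was Rprm, which encodes the cell cycle inhibitor reprimo, at 14.1 to 21.3 CPM in saline and 25.6 to 31.5 CPM in ethanol mice (0.65 ± 0.13, FDR = 0.034 by edgeR), a call lost without acute ethanol mouse 4. In the acute DS 2 of 38 were called higher and 3 lower, where 2.05 and 3.1% of all genes were. Rprm was lower there, at 16.2 to 21.6 CPM in saline and 5.51 to 9.16 CPM in ethanol mice (-1.40 ± 0.19, FDR = 0.000922 by edgeR). Btg2, an antiproliferative gene that also responds to neuronal activity, was 17.6 to 34.7 against 10.8 to 14.3 CPM (-0.93 ± 0.22, FDR = 0.0409 by edgeR), and Plk3, a stress-responsive kinase, was -0.78 (FDR = 0.0645 by edgeR). Ephx1, an epoxide hydrolase, was higher (0.62, FDR = 0.00735 by edgeR), as was Ptprv (0.57, FDR = 0.0691 by edgeR). These DS differences stand beside that of the pallial neuron markers given above, and its part was not tested. The DS count of 5 was 3 without acute saline mouse 2, 3 without acute ethanol mouse 3 and 2 without acute ethanol mouse 5. In the other 8 ethanol comparisons none of the list was called by edgeR, with 2 to 7 at an unadjusted p under 0.05, and DESeq2 called 2 in the acute vHPC, 1 in the acute VS and 0 in the other 6. Its median log2 difference over the 10 comparisons lay between -0.056 and 0.122, against -0.007 to 0.064 for all genes.

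Mdm4, Bax and Zmat3 were not called in any ethanol comparison. Mdm4, the p53 inhibitor related to Mdm2, had acute differences of -0.02, -0.05, -0.03, 0.07 and 0.01 in the regions from cortex to VS, and chronic ones from -0.26 in the cortex to 0.15 in the DS. Bax, which opens the mitochondrial membrane in cell death, had -0.14, -0.03, 0.27, -0.25 and -0.03, and Zmat3, an RNA-binding p53 target, -0.13, -0.10, -0.14, -0.05 and -0.02 after acute ethanol. Btg2 had -1.26 in the acute VS (FDR = 0.13 by edgeR) and -0.47 in the acute cortex (FDR = 0.479 by edgeR). The kinases upstream of p53 (Atm, Atr, Chek1, Chek2 and Prkdc) were not called by edgeR in any ethanol comparison, with 0 to 2 of the 5 at an unadjusted p under 0.05. Of 10 paralogs of the members that were tested, Gadd45b (-0.39, FDR = 0.0973 by edgeR) and Phlda1 (-0.46, FDR = 0.0883 by edgeR) were lower in the acute cortex, and Sesn3 was higher in the acute DS (0.30, FDR = 0.0501 by edgeR).

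Between chronic and acute saline mice, Perp (2.01, FDR = 0.0472 by edgeR), a p53 target of cell adhesion, and Pltp (1.12, FDR = 0.0204 by edgeR), a lipid transfer protein, were called higher in the DS of the wider list, and the paralog Cdkn1c (2.05, FDR = 0.0339 by edgeR) was called as well. A list of 7 choroid plexus markers was higher there for 7 of 7 genes with a median of 4.909, and its part in these 3 differences was not tested. Between regions of saline mice, 24 of 39 genes of the wider list were called between the dHPC and cortex (15 higher and 9 lower in the dHPC), 17 of 38 between the DS and vHPC, 16 of 38 between the VS and vHPC and 3 of 38 between the VS and DS, where 55.3, 41.6, 39.1 and 9.88% of all genes were.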

How the data were processed

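Poly(A) RNA of 62 samples (20 groups of region, paradigm and treatment, 3 or 4 mice each) was sequenced in 2 kit batches. Per the submitters' processing notes and methods, the authors used Cutadapt 5.0 for trimming, STAR 2.7.10a for alignment to GRCm39 and featureCounts 2.0.6 for counts on Ensembl exons, set to reverse-stranded also for the unstranded batch 1, and a read on several features or places was counted for each. The authors deposited raw gene and isoform counts without normalization. Even counts made up 58.49% of nonzero values in batch 1 and 76.01% in batch 2 (70.84 and 90.44% of counts up to 10), so many fragments appear to enter as 2 mates, and the counts are not independent molecules.

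Genes that reached 5 counts in 2 or more libraries of one group, the study's filter, were tested with edgeR 4.0.16 (limma 3.58.1, R 4.3.3, quasi-likelihood F test, TMM, prior count 0.125) within 1 region, with a Benjamini-Hochberg FDR below 0.1 over all genes tested. The region comparisons carried paradigm as a covariate. DESeq2 1.42.0, its size factors in edgeR, no filter, a joint fit of 4 groups, the replicate number as a block, and leaving out single libraries were alternatives, and fits with or without the incomplete DS library, the mouse as a block for all members and Dino's likeness in the cortex or dHPC alone were added after seeing the data. That library stayed in the DS ethanol and interaction fits. Scripts were tested on simulated data. Python 3.11.15 with pandas 2.3.3, numpy 2.4.6 and matplotlib 3.10.9 was used for tables and plots.

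The 10 members and all gene lists were chosen with earlier results of these data known. All 10 are covered in every comparison, singly or by a range. Of the wider p53 list, kinases and paralogs, genes called by edgeR are named (at most the 6 largest changes a comparison), with Mdm4, Btg2, Bax and Zmat3 in any case, and for likeness the 5 highest r. In ethanol and paradigm comparisons a shared replicate number names different mice (in the dHPC acute comparison same-numbered mice had r of -0.002, -0.038 and 0.004). In region comparisons the same mice gave both regions per the labels (r of -0.087 to 0.312).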

Additional observations from a re-analysis of the deposited data

Results flagged for a closer look

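In groups of 4 mice, the highest or lowest sample was set against the others by Dixon's ratio of its gap to the group's range and its 95% critical value. Of 20 gene and group pairs tested, 4 passed, all in the chronic ethanol group of the DS, and chance alone passes about 1 in 20. Cdkn1a was 10.43 CPM in mouse 6, against 14.59 to 15.27 in the other mice. Sesn1 was 65.74 CPM in mouse 1, against 50.74 to 52.66. Trp53inp1 was 14.25 CPM in mouse 5, against 12.46 to 12.71. Dino was 0.1504 CPM in mouse 1, which is a count of 2, and 0 in the others. With 0 in all other mice any nonzero value passes, so the Dino case cannot be set against the chance rate. The mouse that stood apart was not the same for the 3 protein-coding genes.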

How the results depend on the processing

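Counts at an FDR below 0.1 moved with the settings, while most fold changes did not. Members called in the acute cortex (1) were 3 with DESeq2, 3 without the filter and 0 with all 4 groups in one fit, and 0 to 3 with a library left out. In the acute dHPC (0) they were 2, 2 and, with the replicate block, 1 (0 to 2), in the acute DS (3) 0 with all 4 groups (1 to 4), and in the acute VS (0) 1 without the filter (0 to 1). The wider list in the acute cortex (1) gave 4 with DESeq2, 6 without the filter, 5 with the replicate block and 0 with all 4 groups (0 to 1), and in the acute DS (5) 0 with all 4 groups (2 to 6). It gave 2 with DESeq2 and 2 without the filter in the acute vHPC (0, range 0 to 1), 2 without the filter in the chronic vHPC (0, range 0 to 1), 1 with DESeq2 and 1 without the filter in the acute VS (0, range 0 to 1), and 1 with the block in the chronic cortex (0). The cortex interaction gave 1 without the filter (0). Chronic against acute saline gave 2 with DESeq2 and 2 without the filter in the cortex (1, range 0 to 2) and 1 and 1 in the DS (0). VS against DS (2) gave 1 without the filter, 1 with the mouse as block and 0 with the incomplete DS library (0 to 2), and DS against vHPC (3) gave 3 to 4. In chronic against acute saline mice the dHPC log2 fold change of Dino turned from -0.19 to 0.0114 with the replicate block, and Mdm2 in VS against vHPC passed with the mouse as block (0.18, FDR = 0.0973 by edgeR). The cause of these shifts was not tested, and the DS fits with all 4 groups held the incomplete library. Replicate numbers paired different mice in all but the region comparisons, and fits with the block could not be made where groups share 1 number. In batch 2 libraries the counts of Dino were too low for a test.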
